A study of Mus musculus with 16 samples.

Results

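The thin filament genes described here, 10 of the 24454 genes in the table, were followed across 16 gastrocnemius muscles. They were picked by name: the slow and fast troponin I (Tnni1, Tnni2), troponin T (Tnnt1, Tnnt3) and troponin C (Tnnc1, Tnnc2) genes, the cardiac troponin T gene Tnnt2, and the tropomyosin genes Tpm1, Tpm2 and Tpm3. All 10 passed the filter on low counts and were among the 15487 genes tested. The muscles came from 3-month-old HSALR mice and FVB mice that received vehicle or AICAR, with 5 HSALR and 3 FVB mice per treatment. HSALR mice are homozygous for a human skeletal actin (HSA) transgene that carries an expanded CTG repeat and is active in skeletal muscle alone. They model myotonic dystrophy type I, they represent a single transgenic line on the FVB background, and the transgene had no entry of its own among the counted genes. AICAR, an activator of the energy sensor AMPK, was given at 500 mg/kg for 7 days.

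In striated muscle, troponin C binds the calcium that is released after excitation, troponin I holds the filament in its off state, and troponin T anchors the complex to tropomyosin, the coiled coil that lies along actin and covers the myosin binding sites. Slow and fast fibres build this switch from different genes, so the ratio of slow to fast transcripts follows the fibre content of a muscle. Tpm3 encodes the slow alpha tropomyosin, Tpm1 the fast alpha tropomyosin, and Tpm2 the beta tropomyosin that pairs with either. Tpm1, Tpm2 and Tpm3 are also used outside striated muscle through other isoforms, which gene counts do not separate. Tnnt2 is the troponin T of the heart and is also transcribed in developing skeletal muscle.

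The 250 bases before a start site are shown for the 4 slow genes, which varied together between mice, and for Tpm2, which differed between genotypes. They are RefSeq sequences of build GRCm38.p6, read 5′ to 3′ on the strand of the gene, and capitals mark E-boxes, the CANNTG motif bound by myogenic basic helix-loop-helix factors. Tnni1 and Tpm3 have a second start site among the RefSeq entries used, and the first entry is shown. The RefSeq span of Tnni1 begins upstream of its window, at 135783033, and the bases before that position are not shown.
Tnni1 (chr1:135799171-135799420, plus strand): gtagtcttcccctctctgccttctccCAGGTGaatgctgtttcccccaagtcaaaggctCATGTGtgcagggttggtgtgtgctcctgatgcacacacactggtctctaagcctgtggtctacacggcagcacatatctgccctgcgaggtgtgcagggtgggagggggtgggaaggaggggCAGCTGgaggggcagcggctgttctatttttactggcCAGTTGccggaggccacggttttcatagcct
Tnnt1 (chr7:4515976-4516225, minus strand): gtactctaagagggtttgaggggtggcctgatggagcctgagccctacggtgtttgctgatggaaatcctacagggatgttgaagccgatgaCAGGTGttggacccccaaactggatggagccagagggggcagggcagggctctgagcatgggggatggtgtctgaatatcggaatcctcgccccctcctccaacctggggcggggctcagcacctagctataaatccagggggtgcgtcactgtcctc
Tnnc1 (chr14:31208062-31208311, plus strand): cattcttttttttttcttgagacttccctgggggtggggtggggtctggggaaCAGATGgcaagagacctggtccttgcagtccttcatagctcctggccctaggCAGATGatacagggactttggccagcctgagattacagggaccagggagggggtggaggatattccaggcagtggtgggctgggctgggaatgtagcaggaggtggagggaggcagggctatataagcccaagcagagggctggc
Tpm3 (chr3:90072401-90072650, plus strand): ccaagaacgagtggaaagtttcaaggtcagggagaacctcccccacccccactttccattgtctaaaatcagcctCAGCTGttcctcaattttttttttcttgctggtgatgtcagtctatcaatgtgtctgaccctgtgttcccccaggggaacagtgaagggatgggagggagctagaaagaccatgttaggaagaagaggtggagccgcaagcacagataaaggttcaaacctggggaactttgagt
Tpm2 (chr4:43523555-43523804, minus strand): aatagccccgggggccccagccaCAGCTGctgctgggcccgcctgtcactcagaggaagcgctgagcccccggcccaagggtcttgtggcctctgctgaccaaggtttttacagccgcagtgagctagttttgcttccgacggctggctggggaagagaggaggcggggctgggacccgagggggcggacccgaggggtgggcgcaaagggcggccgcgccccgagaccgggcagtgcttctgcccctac
An E-box was present in all 11 start-site windows of the 8 members that had an entry, and in 66.2% of the 32851 windows of the same length over all genes. The Tnni1 window held 4 E-boxes, the Tnnc1 window 2, and the Tnnt1, Tpm3 and Tpm2 windows 1 each. TATAAA, searched on both strands, occurred in the Tnnt1 window alone among the members, against 12.4% of all windows. The MCAT motif CATTCCT was found on either strand in the Tpm1 window and in the first Tnnt2 window, against 4.51% of all windows. No member window matched the MEF2 or the CArG motif, which 2.92% and 1.47% of all windows held. A match is a description of the letters in these windows, and the data do not bear on binding.

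Between 64890014 and 81987726 reads were counted per library, and the 10 members took 3.98% to 5.35% of them. Tnnt2 had 123 to 474 counts per library, and every other member had at least 8045. FVB vehicle mouse S450 stood apart from the other mice in all the slow members. In 6 libraries Krt14, a keratin of the epidermis, exceeded 1 normalised CPM (the counts of a gene scaled to the size of its library by the trimmed mean of M values): FVB vehicle S450, HSALR vehicle S452, S453, S458 and S459, and FVB AICAR S448. None of these was an HSALR AICAR library, and the 8 epidermal markers summed to at most 0.371 normalised CPM there, against up to 187.4 in HSALR vehicle libraries. Leaving out the 6 libraries keeps 1 HSALR vehicle mouse, S451, so the ratio tests were not repeated without them.

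Levels were expressed as normalised CPM, and only where genes were compared with each other were they divided by the counted exon length in kilobases. Per kilobase and averaged over the 16 mice, Tnnt3 held rank 3 among the 15487 genes at 10549.8 normalised CPM per kilobase, Tnnc2 rank 6, Tnni2 rank 8 and Tpm1 rank 11. Tpm2 followed at 1336 normalised CPM per kilobase. The slow genes came far below, with Tnnt1 at 365.8, Tnnc1 at 361.4, Tnni1 at 229.5 and Tpm3 at 133.0 normalised CPM per kilobase, and Tnnt2 was the lowest member at 2.59, rank 8725. Most troponin and tropomyosin RNA was thus of the fast genes. Counted lengths join the exons of all isoforms of a gene, so levels per kilobase are approximate. The fast members varied least: the highest of the 16 mice exceeded the lowest by 1.38-fold for Tnni2, 1.43-fold for Tnnt3, 1.44-fold for Tpm1 and 1.55-fold for Tnnc2. For the slow members this range was 6.73-fold for Tnnt1, 6.85-fold for Tpm3, 7.66-fold for Tnni1 and 7.74-fold for Tnnc1.

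**Figure D1:**
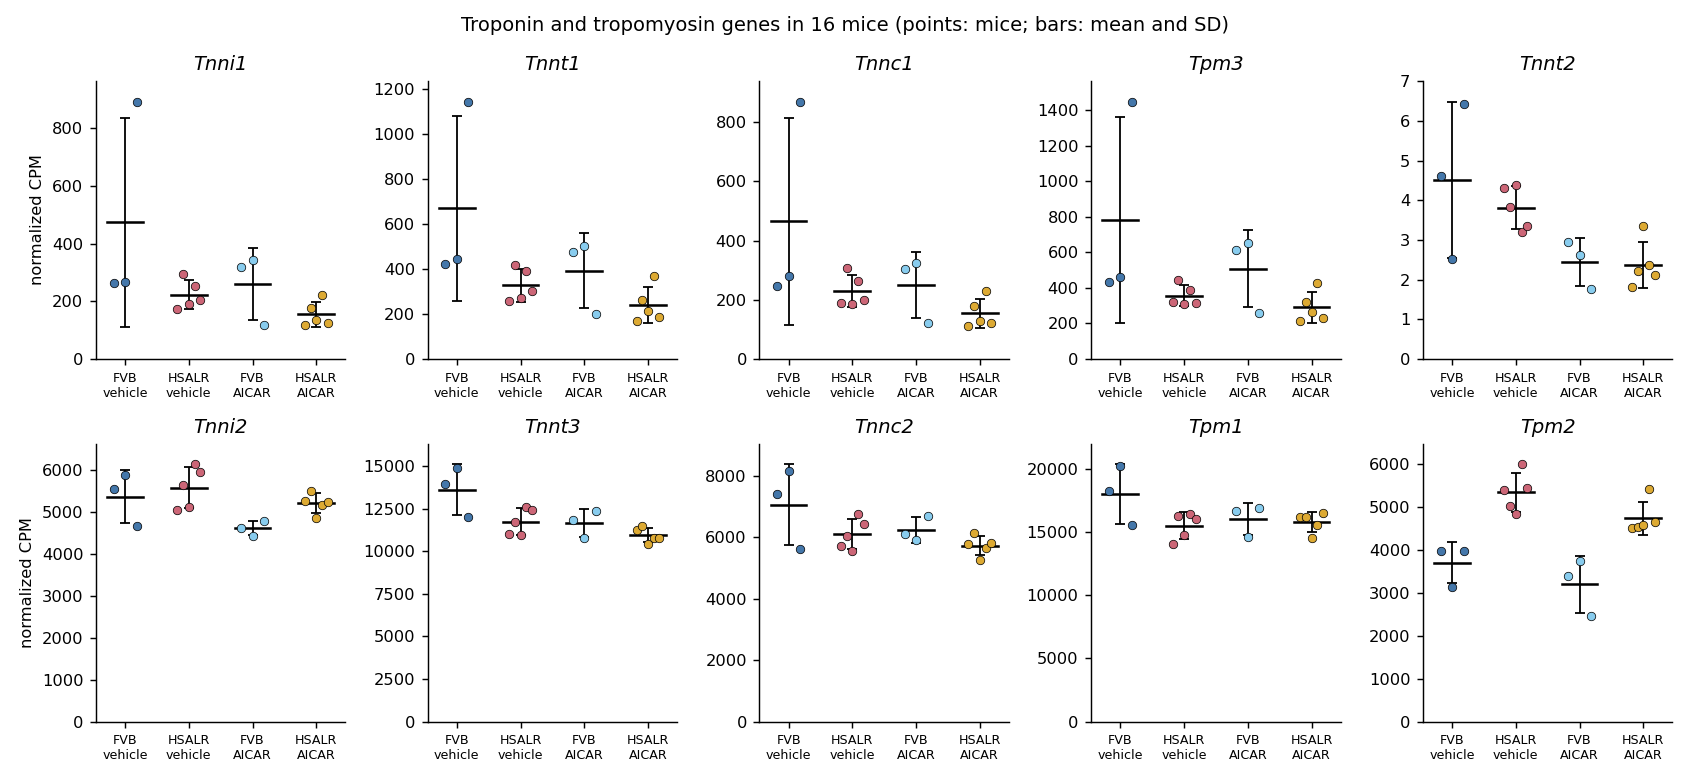
Normalised CPM of the 10 genes on the vertical axes in the 4 groups on the horizontal axis; each point is a mouse, and the horizontal line and bar give the mean and SD of 3 (FVB) or 5 (HSALR) mice. The slow genes in the top row are spread by FVB vehicle mouse S450, at 892 for Tnni1, while Tpm2 lies higher in all HSALR mice than in all FVB mice.

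The first comparison asked how HSALR muscle differed from control muscle after vehicle. Of the 10 members, 3 passed edgeR's quasi-likelihood test at an adjusted p under 0.05, against 26.9% of all genes tested: Tnnt1 and Tpm3 were lower and Tpm2 was higher. The median log2 fold change was -1.06 over the 4 slow members and -0.21 over the 4 fast members, beside 0.01 over all genes.

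Tnnt1 (chromosome 7, 4504569 to 4515975 in GRCm38.p6), slow troponin T, was at 420.2, 445.5 and 1143 normalised CPM in the FVB mice S445, S446 and S450. In the HSALR mice it was at 255.9, 419.7, 272.3, 391.5 and 300.1 normalised CPM. The groups did not overlap, by a margin of less than 1 normalised CPM. A split without overlap, in either direction, occurred in 29.7% of genes. The log2 fold change was -1.03 (SE 0.35, 95% interval -1.78 to -0.28, adjusted p = 0.041 in edgeR).

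Tpm3 (chromosome 3, 90072651 to 90100902), slow alpha tropomyosin, was at 434.7, 459.8 and 1448 normalised CPM in FVB mice and at 320.0, 446.7, 310.9, 387.0 and 315.5 in HSALR mice, with overlap. Its log2 fold change was -1.13 (SE 0.36, adjusted p = 0.031 in edgeR). Tnni1, the slow inhibitory subunit, had 264.0, 265.4 and 892.0 normalised CPM in FVB mice and 171.7, 294.7, 191.2, 252.0 and 204.8 in HSALR mice. Its log2 fold change of -1.09 (SE 0.39) missed the threshold at an adjusted p of 0.051 in edgeR, and it was called in 6 of 27 alternatives. Tnnc1, the calcium-binding subunit shared by slow fibres and heart, had 248.3, 280.7 and 869.5 normalised CPM in FVB mice and 187.8, 307.3, 186.2, 264.3 and 200.7 in HSALR mice. Its log2 fold change was -1.02 (SE 0.39, adjusted p = 0.063 in edgeR), called in 3 of 27 alternatives.

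In each of these genes the FVB mean was carried by S450, and the other FVB mice were within or just above the HSALR range. Without S450 the log2 fold changes were -0.40 for Tnnt1, -0.33 for Tpm3, -0.25 for Tnni1 and -0.21 for Tnnc1, and none passed the test (adjusted p from 0.42 to 0.71 in edgeR). Without the 6 libraries with epidermal RNA the log2 fold changes were -0.76 for Tnnt1 (adjusted p = 0.47 in edgeR) and -0.49 for Tpm3 (0.64). Over 27 alternatives Tnnt1 was called in 18 and Tpm3 in 19, with the calls also lost when HSALR mouse S451, S453 or S459 was left out (adjusted p from 0.054 to 0.079 in edgeR) and with limma voom. Myh7, the slow myosin heavy chain, was likewise at 4812 normalised CPM in S450 against 1506 and 1647 in S445 and S446. In such bulk samples, fewer fibres of a type and less RNA per fibre cannot be told apart.

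Among the fast members, Tnni2 had 5550, 5887 and 4671 normalised CPM in FVB mice and 5046 to 6137 (median 5640.3) in HSALR mice, a log2 fold change of 0.05 with a 95% interval of -0.12 to 0.23. Tnnt3 had 13941, 14908 and 11995 normalised CPM against 10930.0 to 12599 (median 11695). Tnnc2 had 7416, 8169.6 and 5622 normalised CPM against 5567 to 6754 (median 6054). Tpm1 had 18232, 20221 and 15534 normalised CPM against 14014 to 16422 (median 16055). The last 3 genes had log2 fold changes of -0.21, -0.21 and -0.22, none of which passed (adjusted p from 0.051 to 0.14 in edgeR). Of 27 alternatives, 9 called Tnnt3, 1 called Tnnc2 and 3 called Tpm1. Here S450 was the lowest FVB mouse, so that leaving it out widened the gap: Tnnt3 was then at -0.30 (adjusted p = 0.013 in edgeR), Tnnc2 at -0.35 (0.0096) and Tpm1 at -0.31 (0.018). Scaled to Tbp in place of all genes, which put the median log2 fold change of all genes at 0.279, these 3 genes had slightly positive log2 fold changes of 0.05 each.

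Tpm2 (chromosome 4, 43513726 to 43523583), the beta tropomyosin, was higher in HSALR muscle under both treatments. After vehicle it had 3975, 3148 and 3977.5 normalised CPM in FVB mice and 5401, 5017, 4840.3, 5996 and 5444.5 in HSALR mice. Every HSALR mouse was above every FVB mouse. The log2 fold change was 0.53 (SE 0.124, 95% interval 0.26 to 0.79, adjusted p = 0.0054 in edgeR), a 1.44-fold higher level. After AICAR it had 3397, 3750.1 and 2456 normalised CPM in FVB mice and 4506, 4531, 4592, 5423 and 4641 in HSALR mice, again without overlap. The log2 fold change after AICAR was 0.57 (SE 0.125, 95% interval 0.30 to 0.83, adjusted p = 0.0049 in edgeR), or 1.48-fold. Tpm2 was 1 of 10 members to pass in that comparison, against 21.8% of all genes, and 26.5% of genes had groups that did not overlap. Ordered by mean, the groups ran from FVB AICAR (3201 ± 669 SD, n = 3) over FVB vehicle (3700.4 ± 478 SD, n = 3) and HSALR AICAR (4739 ± 386 SD, n = 5) to HSALR vehicle (5339.6 ± 446.9 SD, n = 5). Within each genotype the ranges of the treatments overlapped, and between genotypes they did not. Without S450 the difference after vehicle was 0.58 (adjusted p = 0.011 in edgeR), and without the 6 libraries with epidermal RNA it was 0.59 after vehicle (adjusted p = 0.13, with 1 HSALR vehicle mouse left) and 0.70 after AICAR (adjusted p = 0.013).

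Tpm2 is also transcribed in smooth muscle and in immature fibres. None of the 5 smooth muscle markers was higher in HSALR muscle after vehicle. Cnn1 and Myh11 were lower with log2 fold changes of -0.84 and -0.83. The summed level of the 5 markers was 153 to 244 normalised CPM in FVB mice and 117 to 159 in HSALR mice. After AICAR Myh11 was lower (-0.49), and Acta2, Tagln, Cnn1 and Actg2 did not pass. Of 5 markers of immature or regenerating fibres, Ncam1 and Myog were higher in HSALR muscle after vehicle by 1.16 and 0.78 on the log2 scale. Chrng (0.65), Myh3 (-0.21) and Myh8 (-0.07) did not pass. After AICAR Ncam1 passed (0.95), while Myh3 (0.54), Myog (0.44), Chrng (-0.18) and Myh8 (-0.36) did not. The summed level of these 5 markers after vehicle, weighted to the most abundant of them, was 324 to 415 normalised CPM in FVB mice and 358 to 424 in HSALR mice. The part of smooth muscle or of immature fibres in the Tpm2 difference was not tested. Car9, which overlaps Tpm2 on the opposite strand with 0 shared exon bases in GENCODE M21, was below 2 normalised CPM in every library.

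The question of how the genotypes differ under AICAR gave no other call. The slow members had log2 fold changes from -0.81 to -0.70 (adjusted p from 0.13 to 0.22 in edgeR), with 95% intervals that reached as low as -1.58. Tnni2 was at 4621, 4437 and 4774 normalised CPM in FVB mice and at 5265, 5505, 4857, 5176 and 5244 in HSALR mice. These did not overlap, but the log2 fold change of 0.18 did not pass (adjusted p = 0.14 in edgeR). The other fast members differed by -0.12 to -0.02 on the log2 scale, within the spread between mice. The low FVB mouse here was S449, with Tnni1 at 117.5 normalised CPM against 319.0 and 343.4 in S447 and S448. Tpm3 passed as well without S449 (-1.12, adjusted p = 0.050 in edgeR, just under the threshold) and without S450, a vehicle mouse in the same fit (-0.81, adjusted p = 0.040).

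**Figure D2:**
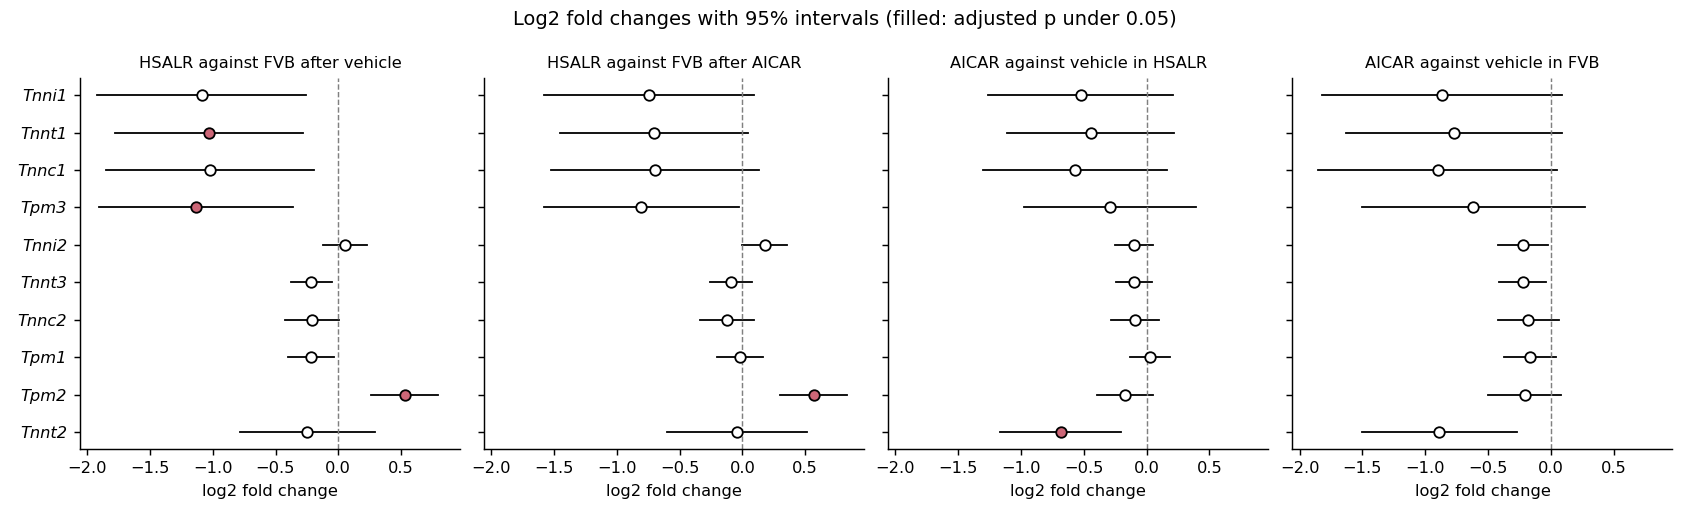
Log2 fold changes of the 10 genes (horizontal axis) in 4 comparisons, with 95% intervals from the edgeR fit; filled points have an adjusted p under 0.05. Intervals of the slow genes are several times wider than those of the fast genes, and Tpm2 lies at 0.53 and 0.57 in both genotype comparisons.

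AICAR was then compared with vehicle within HSALR muscle. Here 1 of 10 members passed the test, against 26.6% of all genes: Tnnt2 (chromosome 1, 135836315 to 135852268), which fell. It had 4.31, 3.83, 4.39, 3.19 and 3.36 normalised CPM after vehicle and 1.81, 2.22, 3.34, 2.37 and 2.13 after AICAR. Only the AICAR mouse S460 reached into the vehicle range. The log2 fold change was -0.69 (SE 0.23, 95% interval -1.17 to -0.21, adjusted p = 0.035 in edgeR). In FVB muscle Tnnt2 had 4.62, 2.51 and 6.44 normalised CPM after vehicle and 2.94, 2.62 and 1.76 after AICAR, a log2 fold change of -0.89 (SE 0.29) that missed the threshold (adjusted p = 0.055 in edgeR) and was called in 5 of 27 alternatives, among them DESeq2 (adjusted p = 0.022) and the fit without S446 (-1.18, adjusted p = 0.011 in edgeR). The call in HSALR muscle was lost when any of 7 single mice was left out, among them S454 (-0.60, adjusted p = 0.089) and S453 (-0.63, adjusted p = 0.078), and without the 6 libraries with epidermal RNA (-0.87, adjusted p = 0.19). All 27 alternatives kept the fall of Tnnt2 in HSALR muscle, from -0.87 to -0.60. Per kilobase, Tnnt2 was a trace beside the fast gene, at 0.0128 to 0.0481 per 100 of Tnnt3 over the 16 mice. The heart markers Nppa, Mybpc3 and Myl7 reached at most 0.0569, 0.0274 and 0.0445 normalised CPM and were at 0 in 6, 11 and 10 libraries, and Tnni3, the cardiac troponin I, did not exceed 0.313. The 5 heart markers summed to 148.8 to 1172.8 normalised CPM, nearly all of it Myh6, a near-identical copy of Myh7 whose reads it may share. Among the immature fibre markers, Chrng and Myog had log2 fold changes of -1.42 and -1.37 with AICAR in HSALR muscle and passed, while Myh3 (-0.52), Ncam1 (-0.37) and Myh8 (0.04) did not. Myog and Ncam1 passed without the 6 libraries, and Chrng did not. The 5 markers summed to a median of 384.2 normalised CPM after vehicle and 379.9 after AICAR, a sum weighted to the most abundant of them. Their part in the Tnnt2 result was not tested.

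No slow or fast member passed in HSALR muscle after AICAR, and the groups of no member were without overlap, against 17.7% of all genes. Tnni1 was at 171.7 to 294.7 (median 204.8) normalised CPM after vehicle and at 116.4 to 222.4 (median 135.6) after AICAR, a log2 fold change of -0.53 with a 95% interval of -1.26 to 0.21. Tnnt1, Tnnc1 and Tpm3 had log2 fold changes of -0.45, -0.57 and -0.29. Without the 6 libraries with epidermal RNA, 4 of which are HSALR vehicle and none HSALR AICAR, these were -0.15 for Tnni1, -0.09 for Tnnt1, -0.29 for Tnnc1 and -0.14 for Tpm3 (adjusted p from 0.76 to 0.93 in edgeR). The fast genes and Tpm2 lay between -0.17 and 0.03.

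In FVB muscle 0 of 10 members passed the test of AICAR against vehicle by edgeR, against 13.2% of all genes, and 3 members had an unadjusted p under 0.05; DESeq2 called 1, Tnnt2. The groups of no member were without overlap, against 33.1% of all genes. Log2 fold changes of the slow members ran from -0.90 for Tnnc1 to -0.62 for Tpm3, and those of the fast members from -0.22 to -0.16. Both S450, high after vehicle, and S449, low after AICAR, enter this comparison. Without S450 the log2 fold changes were -0.08 for Tnnc1, -0.03 for Tnni1, -0.14 for Tnnt1 and 0.19 for Tpm3 (adjusted p from 0.77 to 0.98 in edgeR), and the log2 slow to fast ratios of all 4 isoform pairs changed sign, to between 0.05 and 0.34. Tnnt3 (-0.31, adjusted p = 0.036 in edgeR), Tnnc2 (-0.32, 0.049) and Tnni2 (-0.31, 0.043) then passed.

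The effects of AICAR in the 2 genotypes were also tested against each other. The difference passed for 0 of 10 members in edgeR, against 0.691% of all genes, with 0 at an unadjusted p under 0.05, and DESeq2 also called 0. Differences ran from 0.04 for Tpm2 to 0.34 for Tnni1 on the log2 scale. The 95% interval was -0.33 to 0.40 for Tpm2 but -0.86 to 1.54 for Tnni1, which leaves differences of either sign possible for the slow genes.

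Slow to fast ratios within a subunit do not depend on the scaling of the library. Per kilobase, Tnni1 stood at 2.85, 2.70 and 11.4 per 100 of Tnni2 in FVB vehicle mice and at 2.04, 3.13, 2.24, 2.46 and 2.06 in HSALR vehicle mice. After AICAR it was at 4.13, 4.63 and 1.47 in FVB mice and at 1.32, 1.91, 1.67, 2.57 and 1.42 in HSALR mice. S450 was also the highest mouse for troponin T, troponin C and alpha tropomyosin, at 10.4, 15.2 and 9.15 per 100 of the fast gene. The 4 slow genes summed, per 100 of the 4 fast genes summed, were 5.92 ± 5.02 (SD, n = 3) in FVB vehicle, 2.93 ± 0.55 (n = 5) in HSALR vehicle, 3.66 ± 1.75 (n = 3) in FVB AICAR and 2.22 ± 0.70 (n = 5) in HSALR AICAR muscle. The SD of the FVB vehicle group was larger than any difference between these means.

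None of the 16 ratio tests, 4 pairs in 4 comparisons by two-sided exact permutation, reached an unadjusted p of 0.05. For troponin I, the log2 ratio in HSALR minus FVB was -0.92 after vehicle (exact permutation p = 0.071) and -0.82 after AICAR (p = 0.12). After vehicle, troponin T gave -0.68 (exact permutation p = 0.12), troponin C -0.61 (p = 0.32) and alpha tropomyosin -0.70 (p = 0.14). After AICAR they gave -0.56 (exact permutation p = 0.27), -0.50 (p = 0.30) and -0.72 (p = 0.14). The troponin I value after vehicle was -1.02 without S452 (exact permutation p = 0.029) and -0.24 without S450 (p = 0.33), and without S450 troponin C changed sign to 0.12 (p = 0.76). AICAR minus vehicle in HSALR muscle was -0.45 (exact permutation p = 0.071) for troponin I and -0.51 (p = 0.063) for troponin C. Troponin T and alpha tropomyosin gave -0.38 (p = 0.13) and -0.35 (p = 0.16) there. In FVB muscle the 3 against 3 design cannot go below p = 0.10 in an exact permutation test, and the p-values were 0.60 to 0.80. Mouse S462, the highest HSALR AICAR mouse in each pair, decided whether the HSALR differences passed: without it the 4 differences were -0.67 to -0.51 on the log2 scale and each reached an unadjusted exact permutation p between 0.0079 and 0.016. Without S449 the 4 ratios after AICAR differed by -1.34 to -1.01 on the log2 scale, lower in HSALR (exact permutation p = 0.048 each, the smallest p for 5 against 2 mice). S451, the HSALR vehicle mouse with little epidermal RNA, was at 2.04, 2.53, 3.24 and 2.24 per 100 of the fast gene for troponin I, troponin T, troponin C and alpha tropomyosin, inside the HSALR AICAR range of each pair. The HSALR vehicle mice S453, S458 and S459, whose libraries held epidermal RNA, were inside these ranges too, and S452 was above each.

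**Figure D3:**
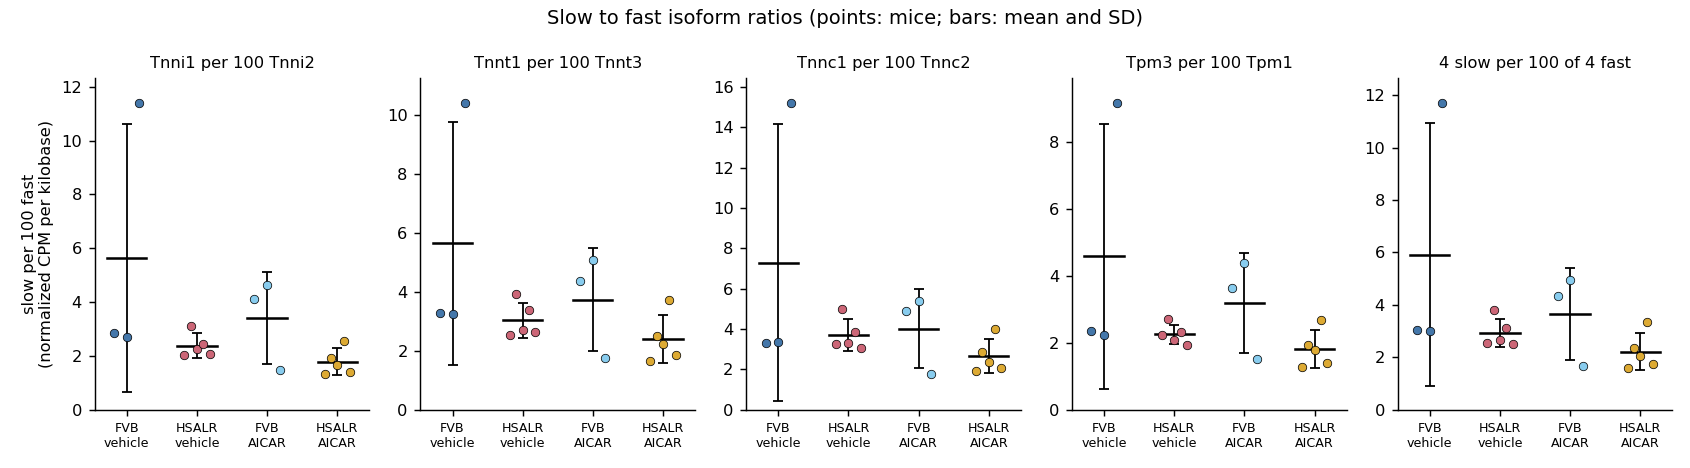
Slow gene per 100 of the fast gene of the same subunit, from normalised CPM per kilobase (vertical axes), by group; points are mice, lines and bars the mean and SD, and the last panel sums the 4 slow and the 4 fast genes. S450 lies at 11.4 for troponin I, and the remaining mice between 1.32 and 4.63.

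The slow genes varied together from mouse to mouse. Expressed as deviations from the group mean on the log2 scale, Tnni1 correlated with Tnnt1 at r = 0.988 and Spearman rho = 0.994 (exact permutation within groups, p = 1.9e-06 for both, the smallest it can give, n = 16). With Tnnc1 it gave r = 0.994 (exact permutation p = 5.8e-06) and rho = 0.988 (p = 1.4e-05). With Tpm3 it gave r = 0.991 (exact permutation p = 1.7e-05) and rho = 0.976 (p = 9.6e-05). With Myh7 it gave r = 0.956 and rho = 0.988 (exact permutation p = 1.9e-06 for both). Leaving out S450 and S449, the mice farthest from the median, left these at r = 0.983, 0.989, 0.983 and 0.936. The fast genes also moved together over a far narrower range, Tnni2 with Tnnt3 at r = 0.956 (exact permutation p = 7.7e-06, rho = 0.947 with p = 1.7e-05) and with Tnnc2 at r = 0.956 (exact permutation p = 9.6e-06, rho = 0.947 with p = 1.2e-05). Without S450 and S451 these were 0.936 and 0.961. These were 6 relations with unadjusted p-values, and the points share library and scaling.

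**Figure D4:**
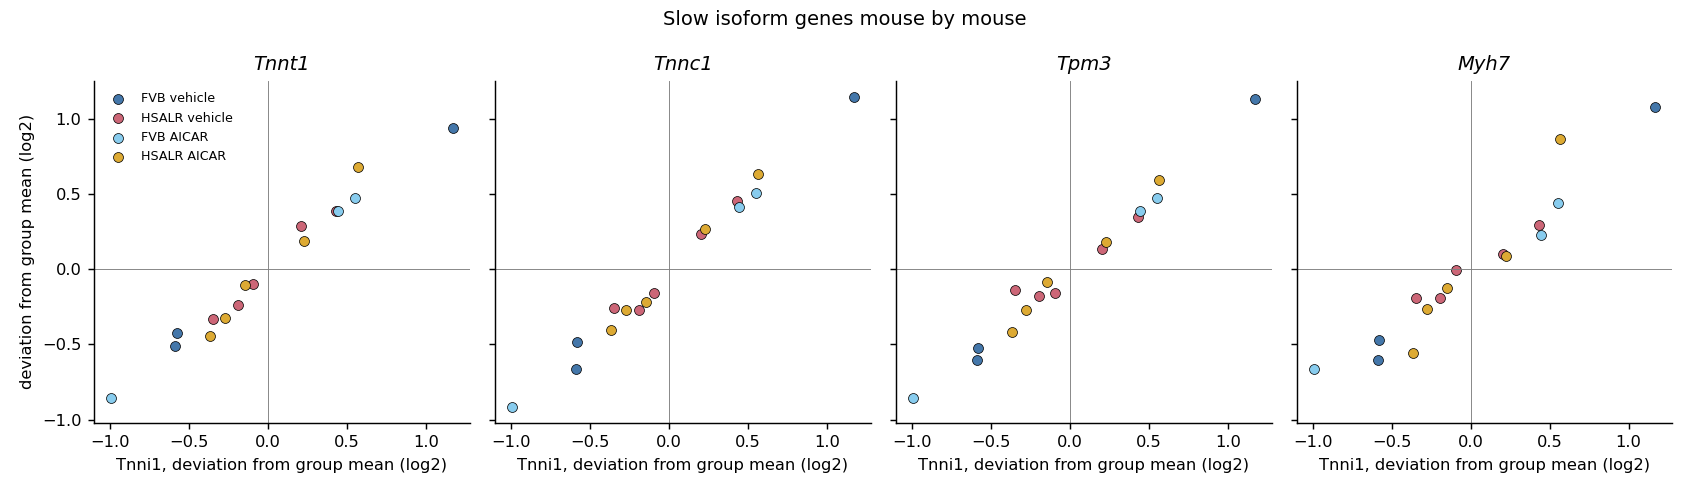
Deviation of Tnnt1, Tnnc1, Tpm3 and Myh7 from the group mean (vertical axes, log2 normalised CPM) against that of Tnni1 (horizontal axis) in 16 mice, coloured by group. Points follow one line from FVB AICAR mouse S449 at the lower left to FVB vehicle mouse S450 at the upper right, with r from 0.956 to 0.994.

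Tropomyosin RNA also differed in its make-up between genotypes. Per kilobase, Tpm2 made up 16.4% ± 2.98 (SD, n = 3) of the 3 tropomyosin genes in FVB vehicle, 25.0% ± 1.65 (n = 5) in HSALR vehicle, 16.0% ± 3.58 (n = 3) in FVB AICAR and 22.5% ± 1.69 (n = 5) in HSALR AICAR muscle. The 6 FVB mice ranged from 12.4% to 19.5% and the 10 HSALR mice from 21.3% to 27.1%. Tpm1 made up 80.1% ± 5.35 in FVB vehicle, 73.4% ± 1.55 in HSALR vehicle, 81.4% ± 4.65 in FVB AICAR and 76.1% ± 2.01 in HSALR AICAR muscle. Tpm3 made up at most 6.81%, in S450. The ratio of Tpm2 to Tpm1, a pair chosen after the values were seen and given without a test, was 1.68-fold higher in HSALR than FVB muscle after vehicle and 1.52-fold higher after AICAR. Summed over the 3 genes, tropomyosin was 6834.5 ± 444 normalised CPM per kilobase in FVB vehicle, 6436 ± 405 in HSALR vehicle, 6011 ± 251.7 in FVB AICAR and 6333 ± 254 in HSALR AICAR muscle.

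**Figure D5:**
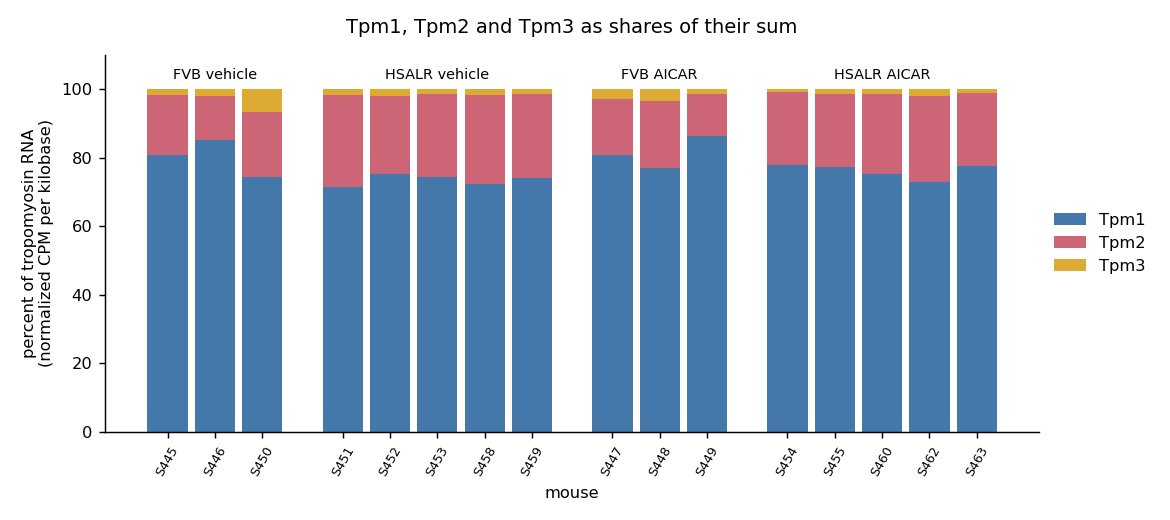
Share of Tpm1, Tpm2 and Tpm3 in their summed normalised CPM per kilobase (vertical axis, percent), 1 bar per mouse, grouped by genotype and treatment. Tpm2 takes 21.3% to 27.1% in the HSALR mice and 12.4% to 19.5% in the FVB mice.

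By Pearson correlation of log2 normalised CPM over the 16 mice, among 9829 other genes with a mean of at least 5 normalised CPM, the genes most like Tnni1 were Myl2 (r = 0.990), Myl3 (0.984), Atp2a2 (0.972), Myh6 (0.952) and Myh7 (0.949). Myl2 and Myl3 encode slow myosin light chains and Atp2a2 the slow calcium pump. Myh6 and Myh7 are near-identical neighbours whose reads may be shared, and without S450 they were still at 0.898 and 0.890. Most like Tnni2 were Rtn2 (0.913), Tfpt (0.902), Snrnp35 (0.866), Sh3bgr (0.856) and Zmat2 (0.852). Most like Tnnt2 were Ikzf2 (0.892), Pnrc2 (0.890), Errfi1 (0.884), Slmap (0.876) and Myom3 (0.874). Without S450 these 5 took places 3, 9, 8, 17 and 14 for Tnnt2, Myh6 and Myh7 took places 6 and 7 for Tnni1, and Snrnp35 took place 6 for Tnni2.

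Counts over the lists below are to be read beside the share of all genes called in the same fit. With every mouse kept, these shares were 26.9% and 21.8% between genotypes after vehicle and AICAR. For AICAR in HSALR and FVB muscle they were 26.6% and 13.2%. Without S450, 3208 and 3392 of 15653 genes were called between genotypes after vehicle and AICAR. For AICAR in HSALR and FVB muscle, 4166 and 1421 were called there. Without the 6 libraries fewer genes were called in each of these comparisons. Counts from that fit are therefore not to be read beside the shares with every mouse kept. Other genes of the thin filament, a list of 20, held 6 higher and 3 lower calls in HSALR muscle after vehicle, with a median log2 fold change of 0.04. Actc1, the cardiac actin, was lower (-3.15, adjusted p = 5.4e-06 in edgeR), as was the Z-disc protein gene Pdlim7 (-1.41), and Xirp1, an actin-binding repeat protein gene, and Klhl40, a stabiliser of thin filament proteins, were higher (2.04 and 1.11). After AICAR the genotypes differed in 3 higher and 4 lower members of that list, including Actc1 (-2.58) and Lmod2, the leiomodin that nucleates actin (0.99). AICAR against vehicle gave 2 higher and 5 lower in HSALR muscle, with Xirp1 at -1.46, and 0 higher and 1 lower, Actc1 at -1.43, in FVB muscle. The difference of the AICAR effects passed for 2 members of the list, Xirp1 and Klhl40, against 0.691% of all genes. Without S450, where 35 of 15653 genes passed, Actc1 passed in their place. The fit without the 6 libraries, with 1 HSALR vehicle mouse left, cannot show whether these calls hold. Without the 6 libraries the list held 4 higher and 2 lower calls between genotypes after vehicle, and 0 higher and 3 lower for AICAR in HSALR muscle.

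Of 12 slow fibre genes, 2 were higher and 5 lower in HSALR muscle after vehicle, with a median of -0.66; Myh7 was at -1.37 and Myl2 at -1.07, while Csrp3, a stretch-responsive Z-disc gene, was at 1.38. Without S450 the same list held 3 higher and 0 lower calls and a median of -0.07, the higher ones being Fhl1, Csrp3 and Ankrd2, and without the 6 libraries 2 higher and 0 lower. After AICAR 4 were higher and 0 lower in HSALR muscle, led by Fhl1 (1.81), with Csrp3 (1.29), Ankrd2 (1.00) and Mybpc1 (0.60), and without S450 4 were higher and 2 lower (Atp2a2, Casq2). With AICAR 1 of 12 was lower in HSALR muscle, Csrp3 (-1.04), which became 2 without S450 (Casq2, Csrp3) and 0 without the 6 libraries. In FVB muscle 0 of 12 passed in edgeR, with 6 at an unadjusted p under 0.05 and a median of -0.77, which was -0.21 without S450 and -0.37 without the 6 libraries. Of 12 fast fibre genes, 1 was higher and 2 lower in HSALR muscle after vehicle. Myh1, the IIX myosin heavy chain, was at 1.52 there and 1.499 after AICAR, when Myh4, the IIB myosin heavy chain, was lower at -0.67. AICAR gave 2 higher and 2 lower fast fibre genes in HSALR muscle (Mylk2 at -0.86, Pvalb at -0.73, Gpd1 at 0.68 and Mybpc2 at 0.59) and 2 higher and 1 lower in FVB muscle. Without S450 the FVB counts were 0 higher and 2 lower (Pvalb, Mylk2), and without the 6 libraries they were 0 higher and 1 lower in FVB and 2 higher and 0 lower in HSALR muscle. Of 12 fibre-type regulators, 0 passed in edgeR in HSALR against FVB muscle after vehicle, with 1 at an unadjusted p under 0.05, and 2 were lower after AICAR, Ppargc1a (-0.87) and Nfatc1 (-0.33). AICAR gave 3 higher and 1 lower in HSALR muscle, led by Eya1 (0.88) and Ppargc1a (0.74), and 2 higher and 2 lower in FVB muscle, led by Ppargc1a (1.66) and Nfatc1 (0.68). Without the 6 libraries 0 regulators passed for AICAR in HSALR muscle in edgeR, and Vgll2 passed between genotypes after vehicle, as it did without S450. Between genotypes after AICAR, Sox6 passed as well without S450, and without the 6 libraries Sox6 and Ppargc1a passed and Nfatc1 did not.

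The 5 skeletal muscle markers were abundant in every library, at 87812 to 135387 normalised CPM in sum. After vehicle, 2 of them were higher in HSALR muscle, Mb and Acta1, and Acta1 reads may include reads of the near-identical human actin transgene. After vehicle, 1 of 3 satellite cell markers (Pax7) and 2 of 3 macrophage markers (Cd68, Csf1r) were also higher in HSALR muscle, while 3 of 3 endothelial markers and 1 of 2 tested heart markers (Myh6) were lower. After AICAR, 2 skeletal muscle markers (Mb, Acta1), Ncam1 and 2 satellite cell markers were higher in HSALR muscle, and Myh4, Myh11, 2 endothelial markers and 5 of 8 epidermal markers were lower. AICAR against vehicle in HSALR muscle gave Des and Pecam1 higher and Pax7, Csf1r, 2 of 4 fibroblast markers and 8 of 8 epidermal markers lower. In FVB muscle it gave Des higher and Pax7, Myog and Myh3 lower. Without the 6 libraries the median log2 fold change of AICAR in FVB muscle was 0.04 over the immature fibre markers and -0.17 over the satellite cell markers. None of the 3 adipocyte and 3 Schwann cell markers passed in these 4 comparisons in edgeR, with 2 Schwann cell markers at an unadjusted p under 0.05 between genotypes after AICAR. Without S450 no heart marker passed after vehicle, Chrng passed as well, and Csf1r passed neither there nor with AICAR in HSALR muscle, while with AICAR 4 of 5 immature fibre markers were lower in HSALR muscle and 1 of 5, Myog, in FVB muscle. Without the 6 libraries no skeletal muscle, heart, satellite cell or endothelial marker passed after vehicle in edgeR, and 1 each of the immature fibre (Ncam1), smooth muscle (Myh11) and macrophage (Cd68) markers did. Of the 3 epidermal markers still tested without them, 0 passed in the 4 comparisons in edgeR. For AICAR in HSALR muscle Col1a1 was then lower, and no skeletal muscle, satellite cell, endothelial or macrophage marker passed.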

How the data were processed

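RNA from gastrocnemius muscle was sequenced single-end from stranded mRNA libraries. Reads were mapped by the authors with STAR 2.5.2a to the mm10 mouse genome, and the deposited values are raw counts of reads that start in any RefSeq exon, tallied with QuasR. Whether strand was used in counting is not given in the sources used here, and Tnnt3 overlaps Prr33 on the opposite strand without shared exon bases. The 24454 Entrez identifiers were given symbols from RefSeq GRCm38.p6, and 24374 matched. Groups came from the sample labels, which call the arm without AICAR a control that the series design names as vehicle.

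Counts were analysed in edgeR 4.0.16 (R 4.3.3) with TMM factors, filterByExpr (15487 genes) and a quasi-likelihood fit of 4 group means, with Benjamini-Hochberg adjustment and a threshold of 0.05. The procedure was tested on simulated data. Ratios and correlations used exact permutation tests over mice. Log2 normalised CPM used a prior count of 2. Alternatives were run in edgeR, limma 3.58.1 (voom) and DESeq2 1.42.0. No 2 libraries of a group were alike within sampling noise. Each library is 1 mouse, and p-values measure the spread between these mice. The comparisons share groups and are not independent. Members, gene lists and markers were chosen with earlier results of these data known. Named genes came from the up to 4 called genes with the largest fold change per list and comparison, not all of which were named. Others were singled out after their values were seen. The values of 1 called gene of the regulator list are not reported here.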

Additional observations from a re-analysis of the deposited data

Results flagged for a closer look

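Of 34 groups of 5 mice examined for a value far from the rest (10 genes and 7 ratios in each HSALR group), 1 held such a value, where chance gives about 1 in 20. Tpm2 in HSALR AICAR mouse S462 was at 5423 normalised CPM while the other 4 mice of the group lay between 4506 and 4641, a gap of 0.853 of the whole range. S462 was also the highest mouse of its group in Tnni1, Tnnt1, Tnnc1 and Tpm3. The difference of Tpm2 between genotypes after AICAR passed the test in all 27 alternatives, the fit without S462 among them.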

How the results depend on the processing

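The higher Tpm2 of HSALR muscle kept its direction in all 27 alternatives after vehicle (0.43 to 0.81 on the log2 scale, called in 26) and after AICAR (0.41 to 0.70, called in 27). Members called after vehicle numbered 3 as reported, where 4169 of 15487 genes were called. With DESeq2 they numbered 5 (4574 of 19992 genes) and with RLE size factors 5 (4132). With limma voom they numbered 1 (4198), and scaled to Tbp 1 (5295). The fit without the 6 libraries with epidermal RNA was chosen after seeing the data. It leaves 1 HSALR vehicle mouse, assumed to vary like the others. Fewer genes were called there over the whole table, so its calls of members are not counted here. For AICAR in HSALR muscle, 1 as reported (4121 of all genes) became 3 with library totals only (4289). For AICAR in FVB muscle, 0 as reported (2039 of all genes) became 1 with DESeq2 (2679). It became 1 with at least 10 counts in every library (2076), 2 with library totals only (1806) and 2 with upper-quartile factors (2094). Leaving out 1 mouse gave 1 to 6 calls after vehicle, with 2826 to 4296 genes called over the whole table. After AICAR it gave 1 to 2 (2214 to 3790 genes). For AICAR it gave 0 to 1 in HSALR (3146 to 4301) and 0 to 3 in FVB muscle (1143 to 2186).

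Scaling to Tbp shifts every gene by the same library constants and put the median of all genes at 0.279 after vehicle, 0.192 for AICAR in FVB, -0.132 for AICAR in HSALR and -0.321 in the difference of the AICAR effects. It reversed Tnnc2 (0.05091), Tnnt2 (0.05555), Tnnt3 (0.05299) and Tpm1 (0.04828) after vehicle, Tnnc2 (0.006969), Tpm1 (0.02627) and Tpm2 (0.007469) for AICAR in FVB, Tpm1 (-0.08999) for AICAR in HSALR, and in the difference of the AICAR effects Tnnc1 (-0.02686), Tnnc2 (-0.2193), Tnni1 (-0.01866), Tnni2 (-0.19), Tnnt1 (-0.01888), Tnnt2 (-0.1322), Tnnt3 (-0.1864), Tpm1 (-0.1163), Tpm2 (-0.2899) and Tpm3 (-0.02362). Library totals reversed Tpm1 for AICAR in HSALR (-0.04785) and Tpm2 in the difference (-0.00765). Without the 6 libraries, Tnnc2 (0.001293) and Tnni2 (0.04287) reversed for AICAR in HSALR, Tnni2 (-0.1863) and Tnnt2 (0.2709) after vehicle, Tnnt2 (0.01307) after AICAR, and Tnnt2 (-0.2578) and Tpm3 (-0.09465) in the difference. For library totals and the 6 libraries the cause was not tested.

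Leaving out 1 mouse, values crossed 0 in the difference of the AICAR effects for Tnnc1 (-0.489 to 0.6304), Tnnc2 (-0.03037 to 0.2279), Tnni1 (-0.4996 to 0.6278), Tnnt1 (-0.3052 to 0.5698), Tnnt2 (-0.1397 to 0.4941), Tpm2 (-0.1222 to 0.1792) and Tpm3 (-0.4761 to 0.6157), after vehicle for Tnni2 (-0.03698 to 0.1257) and Tnnt2 (-0.5362 to 0.09778), after AICAR for Tnnt2 (-0.229 to 0.1139) and Tpm1 (-0.08532 to 0.01666), for AICAR in HSALR for Tpm1 (-0.002793 to 0.05805) and in FVB for Tpm3 (-0.9055 to 0.1862). Slow to fast log2 ratios then ranged after vehicle from -1.277 to -0.2357 for troponin I, -0.9651 to -0.1284 for troponin T, -0.9833 to 0.1205 for troponin C and -1.049 to -0.03115 for alpha tropomyosin; after AICAR from -1.341 to -0.5146 for troponin I, -1.034 to -0.2723 for troponin T, -1.008 to -0.2042 for troponin C and -1.185 to -0.4155 for alpha tropomyosin; for AICAR in HSALR from -0.59 to -0.344, -0.5548 to -0.2593, -0.668 to -0.3914 and -0.5052 to -0.2376 in that order; and in FVB from -0.906 to 0.1354, -0.7916 to 0.05426, -0.9936 to 0.1103 and -0.6823 to 0.3356. All 12 alternatives of the correlations left them past the threshold. Tnnt2, at 123 to 474 counts, is the member whose precision depth limits most. No paired analysis was possible because no mouse identifier is shared between groups.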
